A study of Mus musculus with 16 samples.

Results

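Hepatocyte messages carried by single ribosomes were compared between FVB mice fed DDC for 4 weeks and FVB mice fed chow. The comparison used 4 of the 16 libraries of the series, 2 from DDC-fed and 2 from chow-fed mice, all made from the monosome fraction of a sucrose gradient of isolated hepatocytes. The DDC libraries came from preparations named B and C, and the chow libraries from preparations named CH1_CH2 and CH3_CH4. FVB is an inbred mouse strain, and the labels give no added allele or agent for any group, nor the animals' age or sex. Cytoplasmic RNA and light and heavy polysomes, of 2 to 4 and of at least 5 ribosomes, made up the other 12 libraries. The labels do not say whether a preparation is 1 animal or a pool, so p-values measure only the spread between these samples, which may be technical. Of 48158 genes, 10102 reached 1 FPKM (fragments scaled by transcript length and by library) in at least 2 of the 4 libraries. Of these, 24 were listed at 0 in 1 diet while abundant elsewhere and were not tested, which left 10078 genes.

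A monosome is a message with 1 ribosome on it, and the fraction also holds ribosomes that carry no message. Messages that start rarely, messages with short reading frames and messages that are being shut off are found there, whereas heavily translated long messages sit on polysomes. DDC, diethoxycarbonyl-dihydrocollidine, blocks ferrochelatase, the last enzyme of heme synthesis, so that porphyrins build up. In mice it is a standard model of bile duct injury and of Mallory-Denk bodies, which are keratin aggregates in hepatocytes.

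The 4 libraries were not of equal size on the deposited scale. Summed FPKM was 611453 and 665906 in DDC and 764465 and 812204 in chow. In DDC 9824 and 9627 genes reached 1 FPKM, against 9243 and 8987 genes in chow. Sequenced depth is unknown, since only scaled FPKM were used. Across genes, replicates had a correlation of log2(FPKM + 1) of 0.958 in DDC and 0.952 in chow, as a description of libraries that share their cells' transcripts. In bulk samples, fewer cells of a type and less RNA per cell cannot be told apart.

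Chow replicate 1 stood apart in sex-linked genes. Xist, the RNA that silences 1 X chromosome, was at 0 in both DDC libraries, against 2.44 and 0 FPKM in chow. Eif2s3y, a Y-linked initiation factor subunit, had 15.6 and 6.23 FPKM in DDC, against 0 and 34.5 FPKM in chow. Ddx3y, Kdm5d and Uty were at 0 in chow replicate 1 as well, and in that preparation's other fractions. Lists of genes known to be sex-biased in mouse liver differed between the chow libraries in the same way. The 20 male-biased genes, tested or not, summed to 2042 and 1683 FPKM in DDC, against 2408 and 14001 FPKM in chow. Mup3 alone held 1929 and 11233 FPKM of the chow sums. Both DDC libraries, which hold Y-linked RNA, lay below both chow libraries in this sum. The 21 female-biased genes summed to 407 and 138 FPKM in DDC, against 2557 and 44.7 FPKM in chow. Beside the results below stand counts of 5 or more list members that move by over 1.5 times without a single library, and named genes whose call ends without one.

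On monosomes 2275 genes rose with DDC and 1879 fell, at a Benjamini-Hochberg adjusted p under 0.05 in limma. That is 22.6 percent and 18.6 percent of the 10078 genes tested, the background for each gene list below. By at least 2-fold, 1770 rose and 1300 fell. The median log2 change over all genes was 0.01. Both DDC libraries lay above both chow libraries in 3484 genes and below them in 3359. The filter leans on direction: 777 genes tested were under 1 FPKM in both chow libraries and 702 of them were called higher, and 360 were under 1 FPKM in both DDC libraries and 270 of them were called lower. Without chow replicate 1 the counts were 2009 higher and 1689 lower. Without chow replicate 2 they were 1721 higher and 1219 lower. Of all called genes 54.8 percent were higher. The share was 69.9 percent (2988 higher and 1289 lower) when each library was set to the same total, which moved the median of all genes to 0.25, and 48.7 percent under quantile normalization.

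The largest rises on DDC monosomes were Ly6d, Lcn2, S100a11, Slpi, Lgals1, Ifi27l2b, Mir6236, Cd63, Gstm3 and Mfge8. They hold secreted defence proteins, calcium- and sugar-binding proteins, a glutathione transferase and membrane proteins of vesicles. Lcn2, lipocalin 2, an iron-siderophore binding protein of the acute phase, lies at chr2:32384633-32388252 (GRCm38). Its FPKM was 4246 and 18219 in DDC, against 13.5 and 4.33 in chow. The log2 change was 9.97 ± 1.1 (SE; adjusted p = 6.08e-05). Ly6d, a surface protein that hepatocytes normally lack (chr15:74762056-74763620), had 465 and 4192 FPKM in DDC, against 0.92 and 0 FPKM in chow. Its log2 change was 9.98 ± 1.3 (adjusted p = 0.000125). In both genes the DDC libraries were far from the chow libraries and also differed by several fold from each other, DDC replicate 2 being the higher.

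S100a11, a calcium-binding protein, had 200 and 630 FPKM in DDC, against 0.982 and 0 FPKM in chow. Lgals1, galectin 1, had 283 and 543 FPKM in DDC, against 5.96 and 0 FPKM in chow. Gstm3, a glutathione transferase, had 2155 and 2727 FPKM in DDC, against 11.9 and 55.7 FPKM in chow. None of these groups overlapped, which the rule for naming the largest changes required. Mfge8, a secreted bridge between dying cells and phagocytes, had 163 and 234 FPKM in DDC, against 1.22 and 1.33 FPKM in chow (log2 change 6.43 ± 0.38, adjusted p = 9.9e-07). Mir6236 was the least secure of the 10: it had 2826 and 1041 FPKM in DDC, against 312 and 0 FPKM in chow (adjusted p = 0.0381). Its adjusted p was 0.399 without chow replicate 2, 0.15 without DDC replicate 1 and 0.0863 without DDC replicate 2.

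The largest falls were Mup3, Sult2a8, Serpina4-ps1, Car3, Ces3a, Slco1a1, Ces3b, Serpina12, Cyp8b1 and Dio1. Most are abundant products of the adult mouse liver: a urinary pheromone carrier, a bile acid sulfotransferase, carbonic anhydrase 3, carboxylesterases, an organic anion uptake transporter and the deiodinase that activates thyroid hormone. Sult2a8 (chr7:14410686-14446769) had 0.222 and 0.567 FPKM in DDC, against 261 and 293 FPKM in chow (log2 change -7.65 ± 0.51, adjusted p = 2.11e-06). Serpina12, vaspin, had 0.701 and 1.08 FPKM in DDC, against 86.7 and 95.3 FPKM in chow (log2 change -5.61 ± 0.23, adjusted p = 3.45e-08). Car3 had 4.87 and 10.3 FPKM in DDC, against 551 and 1716 FPKM in chow. Mup3, which is male-biased, had 2.95 and 40 FPKM in DDC, against 1929 and 11233 FPKM in chow (log2 change -8.52 ± 1.6, adjusted p = 0.00128). Its chow value was lower in the library without Y-linked RNA, and the groups did not overlap, which the naming rule required. Mup, carboxylesterase and glutathione transferase genes have near-identical relatives between which reads can be split, so values of single members are uncertain.

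**Figure D1:**
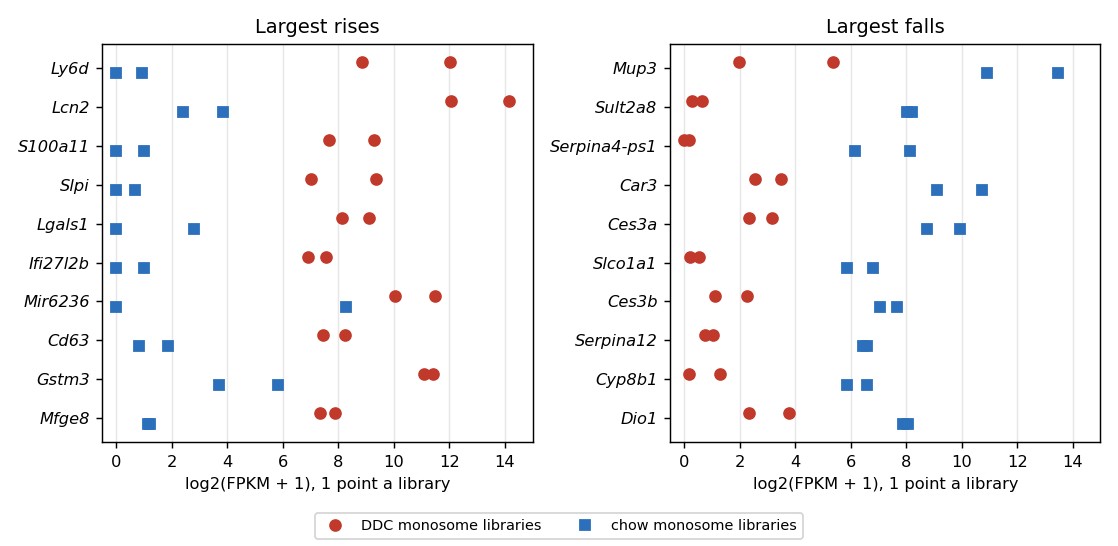
Levels of the 10 largest rises (left panel) and 10 largest falls (right panel) on monosomes as log2(FPKM + 1), with 1 circle for each DDC library and 1 square for each chow library. Only genes without overlap of the diets' libraries were chosen, so circles lie right of both squares in every rise and left in every fall. The genes run from Ly6d at 465 and 4192 FPKM in DDC and 0.92 and 0 FPKM in chow to Mup3 at 2.95 and 40 FPKM in DDC and 1929 and 11233 FPKM in chow.

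Messages of the cytosolic ribosomal proteins fell as a group on DDC monosomes. Of 82 tested, 70 fell and 0 rose (12 were not called), and the median log2 change was -1.41, against 0.01 for all genes. The estimate was below 0 for 81 genes, and in 80 both DDC libraries were below both chow libraries. Over all 10078 genes tested, 18.6 percent were called lower, and 3359 had both DDC libraries below both chow libraries. Proteins of the large subunit (39 of 48 lower, median -1.40) and of the small subunit (29 of 32 lower, median -1.38) were alike in this, and Fau, which joins a ubiquitin-like protein to a ribosomal protein, fell too. The summed level of the 82 genes was 73864 and 54030 FPKM in DDC, against 141745 and 157128 FPKM in chow. The size of the fall depended on scaling. With each library set to the same total, 61 fell and 0 rose, with a median of -1.1, against 0.25 for all genes. Under quantile normalization 54 fell and 1 rose, with a median of -0.86, against -0.1 for all genes. Ribosomal protein genes have many processed pseudogenes between which reads can be split, and values of single genes carry that uncertainty.

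Ribosomal protein messages are known for a pyrimidine tract that begins with C at the very 5′ end of the message and lets the mTOR pathway switch their translation as a group. The first 25 bases of the most abundant annotated transcript are shown for genes with such a start in the annotation and for genes without it, of which Rpl35a and Rpl5 fell and Rplp0 was not called (GENCODE transcripts on GRCm38, 5′ to 3′ on the message strand, T for U). Capitals mark a run of at least 5 C or T letters that begins with C within the first 4 bases.
Fau, chr19:6057943-6057967, plus strand: aCTTCTTCCTCTTTCTTgactccat
Rpl22, chr4:152325853-152325877, plus strand: gCCCCCCTCCCTTTCTgcctcctct
Rpl32, chr6:115808723-115808747, minus strand: CTTCCTTCTTCCTCggcgctgccta
Rps27, chr3:90213627-90213651, minus strand: gCTCCTTTCCggcggtgacgacctc
Rps21, chr2:180257377-180257401, plus strand: CCCTCCTgcccaatagtgctgcgga
Rplp1, chr9:61914518-61914542, minus strand: gatCTTTTCCTCagctgccgccaag
Rpl35a, chr16:33056453-33056477, plus strand: cacaaggccgcgcggcggggcttgc
Rpl5, chr5:107900502-107900526, plus strand: cagccactctttctcacgtcgcttg
Rplp0, chr5:115559467-115559491, plus strand: ggaccgcctggttctcctataaaag

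Such a run stood at the annotated start of 18 of the 82 ribosomal protein genes, or 22 percent, against 8.16 percent of the 9529 protein-coding genes tested (778 genes). The median log2 change on monosomes was -1.40 with the run and -1.43 without it. Annotated starts are often some bases away from the start that a cell uses, so no match says only that these letters are not at the annotated start. Only the message strand was searched.

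Rpl35a had the lowest estimate, with 194 and 119 FPKM in DDC, against 960 and 1195 FPKM in chow (log2 change -2.81 ± 0.38, adjusted p = 0.000174). Rps27a, a ubiquitin fusion, had 286 and 193 FPKM in DDC, against 1210 and 1260 FPKM in chow (-2.39 ± 0.33). Rps27 had 1154 and 1001 FPKM in DDC, against 5522 and 5490 FPKM in chow (-2.36 ± 0.27). Each of these groups was tight next to the gap between the diets. Rpl22, a large subunit protein, had the lowest adjusted p of the list (adjusted p = 1.87e-05), with 270 and 256 FPKM in DDC, against 1113 and 1230 FPKM in chow (-2.15 ± 0.2). The acidic stalk proteins, which bind translation factors to the ribosome, varied: Rplp2 fell (-0.85, adjusted p = 0.0207, but 0.0738 without chow replicate 1, 0.0865 without chow replicate 2 and 0.175 without DDC replicate 2), and the others were not called. Rplp0 had 1588 and 1254 FPKM in DDC, against 1234 and 1298 FPKM in chow (0.16 ± 0.23, adjusted p = 0.62). Rplp1 had 5740 and 3611 FPKM in DDC, against 5685 and 6361 FPKM in chow (-0.40 ± 0.36, adjusted p = 0.39). In both, the groups overlapped. The other 10 members that were not called all had estimates below 0, among them Rps15a, Rpl41, Rpl13, Rpl18, Rps12, Rpl19, Rpl10a and Rpl29.

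The list's shift had another size in each of the other RNA pools. The list's median log2 diet difference was -0.06 in cytoplasm (2 higher and 5 lower of 82), -0.38 on light polysomes (2 higher and 16 lower) and 0.21 on heavy polysomes (3 higher and 4 lower). As a share of nuclear-encoded FPKM the 82 genes made up 12.5 and 8.8 percent of the DDC monosome libraries, against 19.6 and 20.4 percent of the chow monosome libraries. On heavy polysomes they made up 8.17 and 8.28 percent in DDC, against 5.26 and 5.36 percent in chow. The cytoplasmic shares were 5.37 and 5.62 percent in DDC, against 4.97 and 4.87 percent in chow, and the light polysome shares 6.54 and 7.48 percent in DDC, against 5.98 and 6.79 percent in chow. In these shares the libraries of the diets were well apart on monosomes and on heavy polysomes, in opposite directions. Summed FPKM of the 82 genes on heavy polysomes was 88194 and 70492 in DDC, against 72279 and 72511 in chow. The diets overlapped in that sum.

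**Figure D2:**
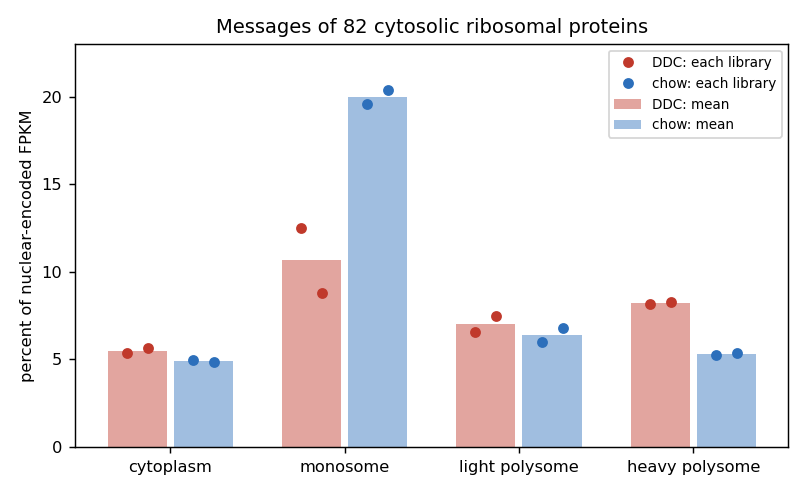
Share of nuclear-encoded FPKM held by 82 cytosolic ribosomal protein genes, in percent, with DDC bars left of chow bars in each RNA pool; bars are means of 2 libraries and points single libraries. On monosomes the DDC libraries stand at 12.5 and 8.8 percent and the chow libraries at 19.6 and 20.4 percent, while on heavy polysomes the DDC libraries stand above the chow libraries.

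The diet difference on monosomes was tested against that on heavy polysomes with an interaction term. It was more positive in 159 genes (1.58 percent of 10068 tested) and more negative in 167 (1.66 percent). Of the 82 ribosomal protein genes, 41 were more negative (50 percent of the list, and 24.6 percent of the 167 genes), and the list's median difference was -1.57. Rps3a1, a small subunit protein, had 404 and 299 FPKM on DDC monosomes, against 1417 and 1418 FPKM on chow monosomes. On heavy polysomes it had 414 and 561 FPKM in DDC, against 309 and 296 FPKM in chow. The difference of the diet effects was -2.70 ± 0.36 log2 (adjusted p = 0.0112). Rpl5, which carries 5S RNA into the large subunit, had 94.0 and 80.0 FPKM on DDC monosomes, against 313 and 317 FPKM on chow monosomes, and 99.6 and 170 FPKM on DDC heavy polysomes, against 79.9 and 91.6 FPKM on chow heavy polysomes (difference -2.45 ± 0.45, adjusted p = 0.0207). Rpl23 (-2.37) and Rps23 (-2.35) followed, and the processed pseudogene Rps23-ps1 had -3.45 (adjusted p = 0.0245), with 9 ribosomal protein pseudogenes among the 167.

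This count moved widely when single libraries were left out. Without chow monosome replicate 2 it called 1 ribosomal protein gene, without chow replicate 1 it called 25, without DDC replicate 1 it called 43 and without DDC replicate 2 it called 13, whereas the list's median difference stayed between -1.77 and -1.33. Without chow replicate 2 the adjusted p was 0.0676 for Rpl5, 0.0625 for Rpl23, 0.0649 for Rps23 and 0.0699 for Rps23-ps1. Without DDC replicate 2 it was 0.0553 for Rpl5 and 0.0725 for Rps23-ps1. With the chow preparation of replicate 1 left out of every fraction it called 0, with a median of -1.62. The count of members lower on monosomes was 64, 53, 72 and 52 without chow replicate 1, chow replicate 2, DDC replicate 1 and DDC replicate 2 in turn. Against cytoplasm, all 82 ribosomal protein genes had a more negative diet difference on monosomes (median -1.36), and 67 had an unadjusted p under 0.05, as did 1351 of all 10072 genes tested. By limma none of the 82 passed the adjusted threshold, the lowest adjusted p being 0.0768. The cytoplasmic libraries carry preparation names (DDC_C2 and DDC_D2 in DDC, CH1 and CH3 in chow) other than those of the monosome libraries.

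Base composition moved with the diet difference on monosomes. The median GC content of the leading transcript was 55.0 percent in protein-coding genes called higher, 46.8 percent in those called lower and 50.6 percent in those not called. Among other protein-coding genes the median log2 change was -0.63 in those up to 40 percent GC and 0.82 in those over 60 percent. The matching values were -0.36 and 0.26 in cytoplasm, -0.52 and 0.67 on light polysomes, and -0.06 and 0.10 on heavy polysomes. Ribosomal protein genes, with a median GC of 52.2 percent, lay below other genes in each bin that held any, with -1.47 (30 genes) against -0.02 (1974 genes) between 48 and 52 percent, and -1.30 (27 genes) against 0.32 (2184 genes) between 52 and 56 percent. With each library's GC trend removed, an alternative chosen after seeing the data, 77 of the 82 fell and 39 were more negative on monosomes than on heavy polysomes. Transcript length, short in this list (median 696 bases against 2154 in all protein-coding genes tested), went with medians between -1.50 (500 to 700 bases) and -1.11 (1500 to 2500 bases, 4 genes), against -0.17 and 0.13 in other genes of those lengths. With GC and length trends removed together 73 fell, and the list's median was -1.10, against -1.34 with the GC trends alone removed. The matching counts of other lists stand beside them where they moved by over 1.5 times.

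**Figure D3:**
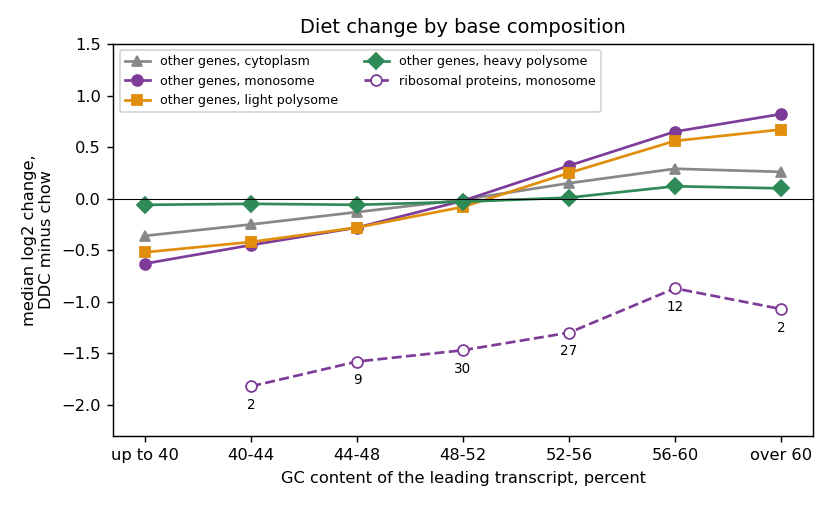
Median log2 difference between DDC and chow (y axis) by GC content of the leading transcript in percent (x axis), for protein-coding genes other than ribosomal protein genes in each RNA pool (filled symbols) and for ribosomal protein genes on monosomes (open circles, with the number of genes). The monosome line of other genes climbs by bin to 0.82, while the ribosomal protein points stay below 0 in every bin.

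Translation factors, which share the pathway with the ribosome, moved less as a list. Of 51 tested, 5 rose and 16 fell, with a median of -0.43; the count lower was 10 without DDC replicate 2, and the count higher was 3 without chow replicate 1 2 without chow replicate 2 and 3 without either DDC library. Eif1, which helps the small subunit find the start codon, had 162 and 140 FPKM in DDC, against 681 and 753 FPKM in chow (-2.24 ± 0.25, adjusted p = 5.45e-05). Eef1a1, the factor that brings aminoacyl-tRNA to the ribosome and a known member of the pyrimidine-tract class, had 2712 and 1184 FPKM in DDC, against 4644 and 4235 FPKM in chow (-1.31, adjusted p = 0.0114, but 0.0554 without chow replicate 1 and 0.122 without DDC replicate 2). Eef1b2, its exchange factor, had 283 and 181 FPKM in DDC, against 650 and 650 FPKM in chow (-1.52, adjusted p = 0.000621). All 3 were lower in both DDC libraries. Eif3m and Eif5 fell as well. Eif6, which keeps the large subunit from joining, went the other way, with 162 and 200 FPKM in DDC, against 33.1 and 39.7 FPKM in chow (2.28 ± 0.24, adjusted p = 3.48e-05). Eif3b also rose (1.35). The 2 elongation factors were chosen for the text after their values were seen.

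Among 20 long noncoding and snoRNA host RNAs tested, 3 rose and 5 fell (median -0.14). All 3 that rose were under 1 FPKM in both chow libraries and passed the filter only through DDC. Of the other 17, 0 rose. Gas5, a spliced host RNA of the pyrimidine-tract class (chr1:161034422-161038539), had 88.2 and 87.3 FPKM in DDC, against 339 and 359 FPKM in chow (-1.98 ± 0.28, adjusted p = 0.000211). Snhg8 had 54.6 and 64.1 FPKM in DDC, against 244 and 205 FPKM in chow (-1.90, adjusted p = 0.00124). Both were lower in each DDC library. Without DDC replicate 2 the list had 2 members called lower. Rmrp, the RNA of a mitochondrial and nucleolar RNase, was at 46.6 and 31.9 FPKM in DDC, against 0 and 0 FPKM in chow. Malat1, a nuclear RNA, stayed low in every library, at 2.28 and 2.31 FPKM in DDC, against 3.31 and 0.313 FPKM in chow.

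By genes called, secreted plasma proteins, the main export of hepatocytes, leaned the other way from the ribosomal proteins. Of 57 tested, 23 rose and 9 fell, with a median log2 change of 0.52 on monosomes. Their median was -0.27 in cytoplasm, -0.48 on light polysomes and -0.71 on heavy polysomes. The list's share of nuclear-encoded FPKM on monosomes was 21.2 and 21.5 percent in DDC, against 22.6 and 19.5 percent in chow. On heavy polysomes it was 24.7 and 20.5 percent in DDC, against 23.7 and 21.5 percent in chow. In both pools the shares of the diets overlapped. Without members listed at 0, the list summed to 123904 and 130447 FPKM on DDC monosomes, against 142863 and 132041 FPKM on chow monosomes. Vtn, vitronectin, an adhesion protein of plasma (chr11:78499091-78502324), had 4654 and 4904 FPKM on DDC monosomes, against 1046 and 871 FPKM on chow monosomes (2.32 ± 0.31, adjusted p = 0.000146). On heavy polysomes it had 6652 and 6569 FPKM in DDC, against 12414 and 9398 FPKM in chow. The groups did not overlap in either fraction and lay in opposite orders on this scale. The change on heavy polysomes was not called (-0.71, adjusted p = 0.111). Summed FPKM of the heavy polysome libraries was 1089500 and 855954 in DDC, against 1379630 and 1359984 in chow. Serpinc1, antithrombin, had 1654 and 1349 FPKM on DDC monosomes, against 531 and 394 FPKM on chow monosomes (1.70 ± 0.34, adjusted p = 0.00188), and 2362 and 2480 FPKM on DDC heavy polysomes, against 5721 and 4094 FPKM on chow heavy polysomes. The diet difference on monosomes minus that on heavy polysomes was 3.03 ± 0.43 log2 for Vtn (adjusted p = 0.0143) and 2.70 ± 0.48 for Serpinc1 (adjusted p = 0.0207).

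In all 7 of the 55 plasma protein genes that had a value on heavy polysomes passed this interaction test, each more positive on monosomes: Vtn, Serpinc1, Serpinf1, F10, Kng1, Apoh and F12, which include clotting factors and their inhibitors. The list's median difference was 1.36. It was 1.28 with the chow preparation of replicate 1 left out of every fraction, which leaves 1 chow library in each pool. The list's median change on monosomes was then 0.47. Without chow replicate 2 the adjusted p was 0.0515 for Vtn and 0.0716 for Serpinc1. The count was 5 without chow replicate 1, 0 without chow replicate 2, 3 without DDC replicate 1 and 6 without DDC replicate 2. The count of members higher on monosomes was 17, 11, 14 and 18 in the same order, and it was 19 with the GC trends removed. Prothrombin, F2, had 888 and 420 FPKM in DDC, against 287 and 256 FPKM in chow (1.17, adjusted p = 0.0345). Its adjusted p was 0.0793 without chow replicate 1, 0.137 without chow replicate 2 and 0.275 without DDC replicate 1. Apoc2, an activator of lipoprotein lipase, had 2680 and 5555 FPKM in DDC, against 722 and 627 FPKM in chow (2.52, adjusted p = 0.000627). Apoa4 had 1302 and 1263 FPKM in DDC, against 204 and 74.9 FPKM in chow (3.36, adjusted p = 0.00914, and 0.0827 without chow replicate 2). No pair of groups overlapped in these 3 genes.

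The 9 plasma protein genes that fell included Serpina3k, Pon1, Apoc1, F5 and F9, which were also called without each library in turn, and Igfals, C8g and Apob, which were not. The adjusted p of Apob was 0.0592 without chow replicate 1, 0.114 without chow replicate 2 and 0.142 without DDC replicate 2. That of Igfals was 0.114 without chow replicate 1 and 0.0954 without DDC replicate 2, and that of C8g was 0.0747 without chow replicate 2 and 0.0631 without DDC replicate 1. Apoc1, an apolipoprotein, had 12895 and 15364 FPKM in DDC, against 45839 and 43818 FPKM in chow (-1.67, adjusted p = 0.0032). Serpina3k had 949 and 716 FPKM in DDC, against 3662 and 3934 FPKM in chow (-2.20, adjusted p = 0.000332). C3 was called higher, with 7895 and 4077 FPKM in DDC, against 1091 and 725 FPKM in chow, but its leading transcript was listed at 0 in both chow libraries, so its size is uncertain. Apoe, Ahsg and Apoa1 were listed at 0 in both DDC libraries, and Serpina1a and Serpina1c in both chow libraries, at 562 FPKM or more in the other diet; Trf was listed at 0 in all 4. These were not tested, and genes of this level at exact 0 can be failed estimates.

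**Figure D4:**
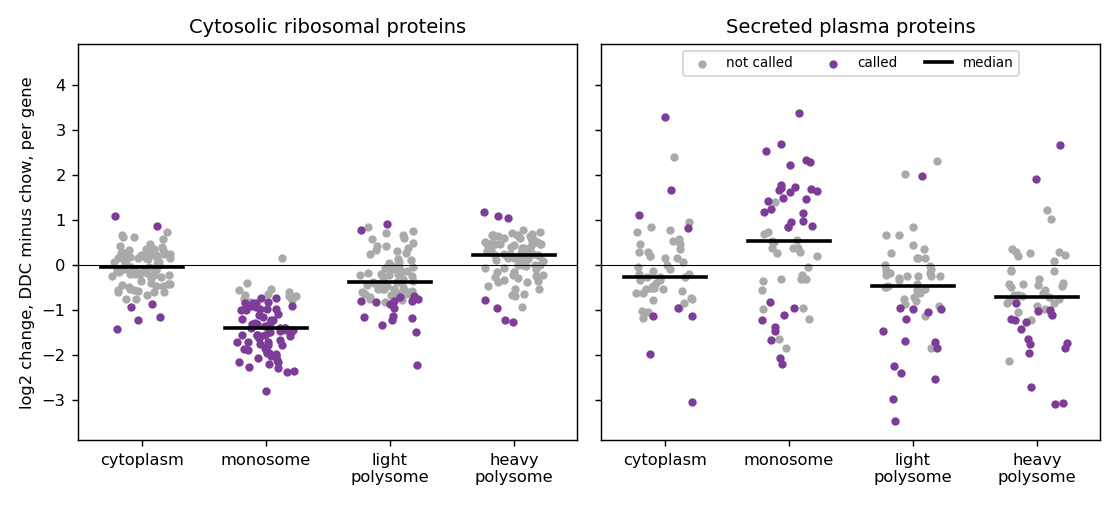
Log2 change, DDC minus chow, of each cytosolic ribosomal protein gene (left panel) and each secreted plasma protein gene (right panel) in the 4 RNA pools, with called genes in purple, other genes in grey and the median as a bar. The ribosomal protein medians run -0.06, -1.41, -0.38 and 0.21, and the plasma protein medians -0.27, 0.52, -0.48 and -0.71, from cytoplasm to heavy polysome.

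Among genes that averaged 50 FPKM or more in a diet, those with the most positive interaction beside Vtn and Serpinc1 were Slc22a18, Amy1 and Tmem205. Slc22a18, an organic cation transporter-like membrane protein, had 206 and 151 FPKM on DDC monosomes, against 20.4 and 29.9 FPKM on chow monosomes (2.78 ± 0.33), and 316 and 172 FPKM on DDC heavy polysomes, against 267 and 270 FPKM on chow heavy polysomes. The difference was 2.99 ± 0.47 (adjusted p = 0.0172). Amy1, amylase, had 142 and 61.1 FPKM on DDC monosomes, against 28.2 and 34.1 FPKM on chow monosomes (difference 2.77 ± 0.5, adjusted p = 0.0207). Tmem205 had 424 and 478 FPKM on DDC monosomes, against 276 and 285 FPKM on chow monosomes, which was not called (0.68, adjusted p = 0.209), and a difference of 2.63 (adjusted p = 0.0411). Without chow replicate 2 the adjusted p was 0.0624 for Amy1, and for Tmem205 it lay between 0.0585 and 0.105 whichever monosome library was left out. The count of 326 was 15 without chow monosome replicate 2, 122 without DDC replicate 2 and 93 without the chow preparation of replicate 1. Their GC content differed by direction, with a median of 56.1 percent in the more positive and 47.9 percent in the more negative genes. Against cytoplasm, 3 genes were more positive (0.0298 percent of 10072) and 2 more negative (0.0199 percent): Foxs1, Ugt3a1 and Gm29216, and D730003I15Rik and Gm21286. The count of 5 was 48 without chow replicate 1. These 5 were named after their values were seen, and 2 of them are pseudogenes.

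Energy metabolism fell on DDC monosomes. Of 77 nuclear genes of oxidative phosphorylation tested, 53 fell and 1 rose, with a median of -1.0, and the medians in cytoplasm, light and heavy polysomes were -0.79, -1.23 and -1.17. Atp5k, a small ATP synthase subunit, had 318 and 313 FPKM in DDC, against 1515 and 1312 FPKM in chow (-2.16 ± 0.24, adjusted p = 5.33e-05). Ndufc1, of complex I, had 104 and 60.8 FPKM in DDC, against 448 and 445 FPKM in chow (-2.47 ± 0.32). Uqcrc1, a core protein of complex III, was the one that rose, with 159 and 114 FPKM in DDC, against 72.8 and 63.1 FPKM in chow (0.98, adjusted p = 0.0111). Its call was lost without chow replicate 2 (adjusted p = 0.0739) and without DDC replicate 1 (0.0819). With the GC trends and the length trends removed together, 41 members of this list fell.

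Of 35 genes of fatty acid oxidation and ketogenesis, 24 fell and 0 rose, with a median of -1.39. Cpt2, which releases fatty acids for oxidation inside mitochondria, had 16.8 and 12.9 FPKM in DDC, against 71.1 and 66.6 FPKM in chow (-2.15 ± 0.29, adjusted p = 0.000154). Acot12, a thioesterase, fell by 2.09 on the log2 scale. In Cyp4a10 and Cyp4a14 the chow libraries differed widely: Cyp4a14 had 3.53 and 2.56 FPKM in DDC, against 109 and 1.75 FPKM in chow, and was not called.

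Among genes of bile acid synthesis and transport more fell than rose. Of 30 tested, 5 rose and 16 fell, with a median of -0.90. Cyp7a1, the rate-limiting enzyme of bile acid synthesis, had 4.07 and 0.714 FPKM in DDC, against 20.7 and 31.6 FPKM in chow (-3.18 ± 0.62, adjusted p = 0.00163). Cyp8b1, which sets the cholic acid share, had 1.45 and 0.133 FPKM in DDC, against 57.9 and 95.9 FPKM in chow (-5.50 ± 0.45). Slc10a1, the main uptake transporter of conjugated bile acids, had 66.9 and 38.9 FPKM in DDC, against 210 and 185 FPKM in chow (-1.93, adjusted p = 0.0015). Slc51b, a subunit of the basolateral bile acid exporter, had 61.3 and 124 FPKM in DDC, against 2.67 and 0 FPKM in chow (5.53 ± 0.56, adjusted p = 2.9e-05), while its partner Slc51a was at 0 in all 4 libraries. The efflux pump Abcc4 (2.45) and the phospholipid pump Abcb4 (1.39) rose too. The efflux pump Abcc3 (1.48) was also called, but not without chow replicate 1 (adjusted p = 0.111), chow replicate 2 (0.0729) or DDC replicate 1 (0.214). The hydroxylase Cyp2c70 (0.82) was called, but not without chow replicate 1 (adjusted p = 0.175), chow replicate 2 (0.0587) or DDC replicate 2 (0.17). The count of 5 was 3 without either chow library. The canalicular pump Abcb11 was not called, at 257 and 146 FPKM in DDC, against 144 and 137 FPKM in chow (0.46, adjusted p = 0.293).

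Other functions of the adult liver moved less evenly. Of 43 genes of the urea cycle and amino acid breakdown, 3 rose and 14 fell (median -0.74), and the count lower was 9 without either chow library 7 without DDC replicate 2 and 7 with equal totals. Otc, a urea cycle enzyme, had 19.5 and 10.6 FPKM in DDC, against 51.6 and 56 FPKM in chow (-1.83 ± 0.25, adjusted p = 0.000192). Of 41 cytochrome P450 genes, 5 rose and 7 fell. Cyp2e1, the ethanol-inducible P450, had 464 and 172 FPKM in DDC, against 2790 and 3516 FPKM in chow (-3.47 ± 0.63). Cyp2b10, the phenobarbital-inducible one, had 668 and 185 FPKM in DDC, against 21 and 14 FPKM in chow (4.28 ± 0.61). P450 genes higher numbered 3 without DDC replicate 1. Of 23 UDP-glucuronosyltransferases and sulfotransferases 2 rose and 10 fell. Of 36 hepatocyte transcription factors and nuclear receptors 4 rose (1 without either chow library or without DDC replicate 2) and 15 fell. That list also holds Ghr, the growth hormone receptor, which is neither. Ghr was among those that fell, at 25.5 and 47.2 FPKM in DDC, against 424 and 698 FPKM in chow (-3.93 ± 0.38, adjusted p = 2.39e-05). Hnf4a itself was not called, at 47.1 and 80.8 FPKM in DDC, against 72.9 and 78.2 FPKM in chow. Hamp, hepcidin, was not called, at 10544 and 12871 FPKM in DDC, against 13468 and 9747 FPKM in chow (0.02, adjusted p = 0.965).

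A list of genes of Mallory-Denk bodies and of the cytoskeleton in general rose. Of 45 tested, 32 were higher and 0 lower, with a median of 1.35, and 4 of the 32 were under 1 FPKM in both chow libraries. Krt8 (chr15:101996698-102004482) had 683 and 835 FPKM in DDC, against 34.3 and 42.1 FPKM in chow (4.28 ± 0.41, adjusted p = 2.1e-05). Krt18, its partner filament protein, had 1269 and 1548 FPKM in DDC, against 100 and 127 FPKM in chow (3.62 ± 0.57, adjusted p = 0.000429). Within each diet the libraries were close, and the diets were far apart. Cotl1 (3.20) and Flna (3.35), which bind actin, rose as well. Sqstm1, p62, a further component of the aggregates, was not called, at 242 and 320 FPKM in DDC, against 159 and 196 FPKM in chow (0.66 ± 0.31, adjusted p = 0.111), although the groups did not overlap.

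Genes driven by NRF2, the oxidant-responsive transcription factor, and genes of glutathione metabolism rose in 21 of 41 cases and fell in 2, with a median of 1.25. Of the 21, 5 were under 1 FPKM in both chow libraries and passed the filter only through DDC. Gsta1, a glutathione transferase, had 74.6 and 77.4 FPKM in DDC, against 1.37 and 0 FPKM in chow (5.64 ± 0.44, adjusted p = 4.93e-06). Srxn1, which repairs oxidized peroxiredoxins, had 74.6 and 150 FPKM in DDC, against 9.4 and 14.3 FPKM in chow (3.08 ± 0.32). Hmox1, the heme-degrading enzyme, had 45.7 and 83.0 FPKM in DDC, against 8.39 and 4.21 FPKM in chow (3.16, adjusted p = 0.000533). The groups were apart in each. Gclm and Txnrd1, also targets of NRF2, had log2 changes of 0.10 and 0.11 and were not called.

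In heme and iron metabolism 8 of 28 genes rose and 5 fell, which is not far from the background. Fech, the ferrochelatase that DDC blocks, had 14.8 and 14 FPKM in DDC, against 26.7 and 44.9 FPKM in chow (-1.21 ± 0.28, adjusted p = 0.00428, and 0.0536 without chow replicate 2). Cpox, an earlier enzyme of the pathway, had 8.83 and 7.16 FPKM in DDC, against 24.1 and 22.1 FPKM in chow (-1.43, adjusted p = 0.00483). Alas1, the first and rate-limiting enzyme, was not called, at 213 and 93.4 FPKM in DDC, against 62.8 and 114 FPKM in chow (0.73 ± 0.41, adjusted p = 0.169). Its groups overlapped. Cp, ceruloplasmin, a ferroxidase of plasma, rose by 2.44 and Steap3, a ferrireductase, by 2.09. The count of 5 that fell was 2 without chow replicate 2 and 3 without DDC replicate 2.

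Acute phase genes rose in 14 of 29 cases with 0 falling (median 1.99), and in 9 without chow replicate 2. Lrg1, a secreted leucine-rich glycoprotein, had 3202 and 5174 FPKM in DDC, against 263 and 278 FPKM in chow (3.91 ± 0.45, adjusted p = 5.99e-05). Saa1 and Saa2, serum amyloids, were uneven between the DDC libraries, with 120 and 966 FPKM for Saa1 in DDC, against 43.2 and 53.7 FPKM in chow (adjusted p = 0.113). Of 17 S100 and annexin genes, which bind calcium, 10 rose and 1 fell, led by S100a11, Anxa5 and Anxa2. Of the 10, 4 were under 1 FPKM in both chow libraries, S100a11 among them. Of 12 fetal liver and progenitor genes that passed the filter 11 rose, but 9 of these were under 1 FPKM in both chow libraries and could pass only through DDC, and 11 others were below the filter. H19, an imprinted RNA of fetal liver, had 17 and 32.5 FPKM in DDC, against 0.355 and 0 FPKM in chow (4.40 ± 0.3). Afp, alpha-fetoprotein, had 3.63 and 9.41 FPKM in DDC, against 0 and 0 FPKM in chow (adjusted p = 0.00526, and 0.0568 without DDC replicate 2).

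Cell cycle messages were higher on DDC monosomes at low levels. Of 28 mitosis genes that passed the filter 25 were called higher, 21 of them under 1 FPKM in both chow libraries, and 17 more were below the filter, among them Mki67, at 1.37 and 0.801 FPKM in DDC, against 0.0625 and 0 FPKM in chow. The 7 tested genes at 1 FPKM or more in a chow library included 4 called higher. Cdca3, a trigger of mitotic entry, had 24.9 and 55.9 FPKM in DDC, against 1.25 and 0.44 FPKM in chow (4.41 ± 0.38, adjusted p = 1.01e-05). Ube2c, which ubiquitinates cyclins, had 17.3 and 25.4 FPKM in DDC, against 0.605 and 0 FPKM in chow (4.12 ± 0.32). Of 38 DNA replication genes 19 rose and 1 fell (median 0.97), with 12 higher without DDC replicate 1. Of the 19, 5 were under 1 FPKM in both chow libraries. Of 24 G1 cyclins, kinases and inhibitors 12 rose and 3 fell, and 2 of the 12 were under 1 FPKM in both chow libraries. Cdkn1a, the p21 inhibitor of cyclin-dependent kinases, had 48 and 43.7 FPKM in DDC, against 2.64 and 1.77 FPKM in chow (3.88 ± 0.41, adjusted p = 3.85e-05). Ccnd1, cyclin D1, was not called, at 41.7 and 56.3 FPKM in DDC, against 38.5 and 12.7 FPKM in chow (adjusted p = 0.208).

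Markers of other cells moved with the diet in these hepatocyte preparations, and their part in the results above was not tested. Of 23 Kupffer cell and macrophage markers tested, 19 rose and 0 fell. Of the 19, 3 were under 1 FPKM in both chow libraries. The summed level over the list was 1437 and 1200 FPKM in DDC, against 222 and 189 FPKM in chow. Cd68, a lysosomal protein of macrophages, had 87.8 and 70.8 FPKM in DDC, against 2.37 and 2.13 FPKM in chow. Ptprc, Itgam and Ccr2, defining markers of leukocytes, were under 1 FPKM in all 4 libraries. Of 18 stellate cell and fibroblast markers tested 16 rose, 9 of them under 1 FPKM in both chow libraries, with sums of 404 and 291 FPKM in DDC, against 61.1 and 90.5 FPKM in chow. Timp1 had 19.6 and 19.2 FPKM in DDC, against 0 and 0 FPKM in chow, and Acta2, the marker of activated stellate cells, 0.52 and 0.665 FPKM in DDC, against 0 and 0 FPKM in chow.

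Of 10 ductal markers tested, 5 rose and 1 fell, but 4 of the 5 were under 1 FPKM in both chow libraries and passed only through DDC. The sums over the list were 278 and 405 FPKM in DDC, against 54.8 and 56.7 FPKM in chow. Tm4sf4 made up most of these sums, at 189 and 255 FPKM in DDC, against 17.9 and 17.7 FPKM in chow. The defining cholangiocyte keratin Krt19 was near 0, at 0.126 and 0.404 FPKM in DDC, against 0 and 0 FPKM in chow, Krt7 and Epcam were under 1 FPKM, and Cftr was at 0 in all 4 libraries. Spp1, osteopontin, had 6.24 and 29.4 FPKM in DDC and was listed at 0 in both chow libraries, so it was not tested. Endothelial markers summed to 176 and 174 FPKM in DDC, against 118 and 135 FPKM in chow (2 higher and 1 lower of 14). Neutrophil markers summed to 11.5 and 18.5 FPKM in DDC, against 3.68 and 11 FPKM in chow (2 higher of 5). These 2 were under 1 FPKM in both chow libraries and passed only through DDC. Of 18 lymphocyte markers only Igkc passed the filter, and it rose. Of 6 red cell markers 1 fell and 0 rose. Hepatocyte markers, in comparison, summed to 63287 and 74060 FPKM in DDC, against 90871 and 78644 FPKM in chow, with 2 of 13 higher and 2 lower. Without its 4 members listed at 0 in a diet, the sums were 61522 and 72678 FPKM in DDC, against 77775 and 66605 FPKM in chow, and the diets overlapped.

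Proteasome genes were higher in 6 and lower in 7 of 36 cases (median -0.04). The count higher was 2 without chow replicate 1 and 3 without chow replicate 2, and the count lower was 4 without chow replicate 2. With the GC trends removed 3 were higher and 3 lower, and with equal totals 11 were higher and 4 lower. Counts also moved for endoplasmic reticulum chaperones and genes of the unfolded protein response, higher in 7 and lower in 2 of 33 (median 0.10), and higher in 4 without chow replicate 1, 2 without chow replicate 2, 3 without DDC replicate 2 and 3 with the GC and length trends removed. Atf4 and Ddit3, stress factors whose messages carry upstream reading frames, were not called, with Atf4 at 92.7 and 70.7 FPKM in DDC, against 124 and 115 FPKM in chow (-0.55 ± 0.26, adjusted p = 0.111). Of 21 such stress messages 2 rose and 6 fell. Cholesterol and fatty acid synthesis genes rose in 13 and fell in 2 of 37 cases, but in 8 without chow replicate 2 and 7 without DDC replicate 2. Lysosomal genes rose in 19 and fell in 2 of 43 (median 0.70), and interferon-inducible and antigen presentation genes rose in 11 and fell in 0 of 37. They rose in 7 without chow replicate 2 and in 5 with the GC trends removed. Of 20 selenoprotein genes, 6 rose and 8 fell, and 2 of the 6 were under 1 FPKM in both chow libraries. Gpx3 had 26.8 and 51.4 FPKM in DDC, against 1.04 and 1.63 FPKM in chow (4.04 ± 0.43). Dio1 had 4.04 and 12.7 FPKM in DDC, against 267 and 237 FPKM in chow (-4.92 ± 0.61). Splicing regulators fell in 9 and rose in 2 of 37 cases, and fell in 2 without chow replicate 2 or without DDC replicate 1, in 5 without chow replicate 1, in 4 with the GC trends removed and in 3 with equal totals. Carboxylesterases rose in 3 and fell in 5 of 12 cases, with 1 higher without chow replicate 2 or without DDC replicate 1. Targets of YAP, the growth-control coactivator, rose in 6 and fell in 1 of 15, 4 of the 6 being under 1 FPKM in both chow libraries. Major urinary proteins, of which 7 more were listed at 0 in DDC, had 1 lower of 3 tested (median -5.06) and mitochondrially encoded messages 0 called of 4.

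**Figure D5:**
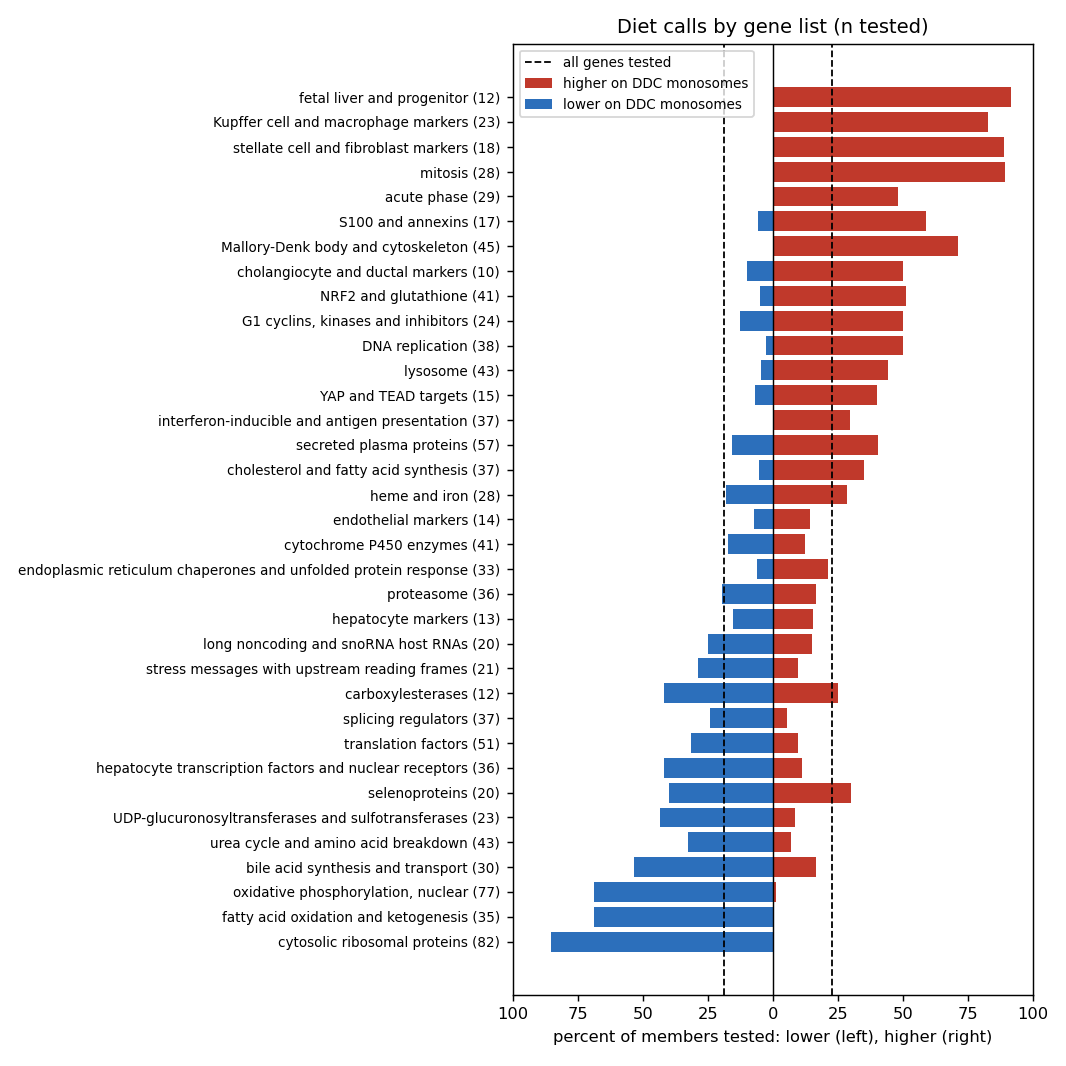
Percent of tested members called lower (bars to the left) and higher (bars to the right) on DDC monosomes for each gene list with its number of members tested, with dashed lines at the shares of all genes tested, 18.6 percent lower and 22.6 percent higher. The ribosomal protein bar reaches furthest left, at 85.4 percent, and mitosis and fetal liver, whose members were mostly under 1 FPKM in chow and could pass the filter only through DDC, reach far right.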

How the data were processed

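Poly(A) RNA of hepatocyte monosomes was sequenced from 2 DDC and 2 chow libraries, by a stranded mRNA kit per the labels' protocols. Per the submitters' processing notes the authors used Cuffnorm, Picard 1.119, STAR 2.4.2a, Trimmomatic and bcl2fastq 2.17.1.14 on GRCm38 (mm10), with no role or order given there. The values were deposited by the authors as FPKM per transcript, so depth is unknown and no count test was possible.

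FPKM were summed per gene through the GENCODE annotation, which matched 116728 of 117567 transcripts (99.29 percent). Genes with at least 1 FPKM in 2 monosome libraries were kept. log2(FPKM + 1) was fitted in limma 3.58.1 (R 4.3.3) with 8 groups over all 16 libraries, which left 8 residual degrees of freedom. The p-values were adjusted by Benjamini-Hochberg over all genes tested, and 0.05 was the threshold. Monosome, light and heavy polysome libraries share preparation names, and the main fit treated them as independent. Its degrees of freedom thus count fractions of the same preparations. Fold changes are on the log2(FPKM + 1) scale and understate those of low genes. Interaction contrasts compared the diet difference between fractions, without pairing the libraries of the same preparation. The test was checked on simulated data with independent noise in each library. Such data cannot show effects of shared preparations or of library scaling.

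Members, gene lists and tests were chosen with earlier results of these data known. Genes were named by rule: an average of 50 FPKM or more in a diet, with no overlap of the diets' libraries; the 10 largest rises and falls (at most 2 Mup genes, predicted genes left out); 5 each way per interaction; the 3 lowest p per list and direction; and a fixed set of genes. Other list members named were picked for their role, with their values known. Alternatives changed the pseudocount, filter, scaling, block, transcripts summed, genes listed at 0 and libraries. GC and length trends, the leading-transcript setting and the sex-biased lists were chosen after seeing the data. Replicate numbers did not pair the diets (correlation of deviations 0.073). Some genes that the rule or the lists hold are not reported here.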

Additional observations from a re-analysis of the deposited data

Results flagged for a closer look

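The diet difference differed between 2 RNA pools, by a test of the difference itself in limma, in the cases that follow. Between monosomes and cytoplasm it was more positive on monosomes in 3 genes and more negative in 2. Between monosomes and heavy polysomes it was more positive on monosomes in 159 genes and more negative in 167. The 167 held 41 cytosolic ribosomal protein genes, and the 159 held 7 secreted plasma protein genes.

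The log2 diet difference on monosomes minus that on heavy polysomes was 3.03 for Vtn, 2.99 for Slc22a18, 2.77 for Amy1, 2.70 for Serpinc1 and 2.63 for Tmem205. It was -3.45 for Rps23-ps1, -2.70 for Rps3a1, -2.45 for Rpl5, -2.37 for Rpl23 and -2.35 for Rps23. The count in both directions was 326, and 15 without chow monosome replicate 2.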

How the results depend on the processing

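Each group had 2 libraries, so 1 library could decide a call. The count of genes higher (2275) ranged from 1688 to 2009 and that of genes lower (1879) from 1219 to 1689 when 1 monosome library was left out. The same ranges were 4 to 48 for genes that differed from cytoplasm (5) and 15 to 388 for genes that differed from heavy polysomes (326). At least 5 FPKM in 2 libraries gave 1369 higher, and the 4 monosome libraries fitted alone gave 1439 higher and 1039 lower. That fit can give no interaction value.

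For the difference from cytoplasm, the count of 5 was 1 with log2(FPKM + 0.1), 44 with log2(FPKM + 5), 19 with no filter, 2 at 5 FPKM, 26 with equal totals, 35 with quantile normalization, 20 without the first chow preparation, 43 with protein-coding transcripts only, 20 with genes listed at 0 tested, and 2 with GC and length trends removed. For that from heavy polysomes, 326 was 516 with log2(FPKM + 5), 209 with no filter, 773 with the preparation as a random block (correlation 0.164), 93 without the first chow preparation, 164 with GC trends removed and 203 with GC and length trends removed. The cause of these shifts was not tested.

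With the replicate number as a block, the counts were 2385 higher, 1974 lower, 5 and 388. Of 176 named genes called, 123 were called under all 19 alternatives and 138 without each library in turn. Hnrnpu was called higher by the main settings, and that call did not hold without each library in turn. With protein-coding transcripts only its change turned to -1.11, and the transcripts summed differ there by construction.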
